A study of Mus musculus with 18 samples.

Results

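Nonsense-mediated decay (NMD) transcripts are mRNAs whose reading frame ends before the last exon junction, and 5161 of them, from 3360 genes, were followed here through erythroid culture of mouse progenitors. The members are the transcripts that the GENCODE M21 annotation types as nonsense_mediated_decay and that the deposited transcript tables list, 5161 of 110403 annotated transcripts in those tables and of 7186 such transcripts in the annotation. Which transcripts are members comes from the annotation alone, but this class was chosen for study with earlier results of these data known. Hematopoietic progenitors were taken from CD-1 mouse fetal livers at embryonic day 14.5, enriched by depletion with a kit plus an antibody to CD71, and infected with the retrovirus MSCV-PIG, which carries a short hairpin RNA, puromycin resistance and GFP. Control libraries carried 1 of 3 hairpins without a mouse target, the scrambled hairpins SCR-1 and SCR-2 and the luciferase hairpin LUC-1. PCBP1 and PCBP2 libraries carried 1 of 3 hairpins (SH1, SH3 and SH4) against Pcbp1 or Pcbp2, which encode RNA-binding proteins with a preference for C-rich stretches. Day 0 cells had spent 48 h in expansion medium with dexamethasone, erythropoietin and stem cell factor, and Day 2 cells had spent 2 further days in differentiation medium with erythropoietin. Each of the 6 groups had 3 libraries of total RNA, and all cells, controls included, were infected. The replicates of a group are different hairpins rather than repeats of 1 hairpin, and nothing in the labels says that they came from separate litters or cultures, so a p-value here reflects only how these libraries vary, which may be technical. No group is labelled with a block of translation or of decay, so every level below is the RNA left after whatever decay took place.

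In NMD, a ribosome that stops upstream of an exon junction, where the exon junction complex still sits on the mRNA, recruits the helicase Upf1, and the kinase Smg1, the adaptor Smg5 and the endonuclease Smg6 then lead to destruction of the mRNA. Many splicing factors use this pathway on themselves: their own protein promotes inclusion of a poison exon, an exon with an in-frame stop codon, in their own mRNA. Introns retained during terminal erythroid differentiation and the shut-down of much transcription as the nucleus condenses are known background of this cell type.

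The stretches of exon that end at the early stop codon show what sets these transcripts apart from coding ones. The first 4 belong to the splicing-related members described under the Day 2 comparison, and the last 4 to members that moved with PCBP1 knockdown. These 8 were picked after their values were seen, by the rule that part or all of the shown exon lies in bases that no coding transcript of the gene uses as exon. Each run starts at the first base of the exon, is written 5′ to 3′ on the transcript, comes from the GENCODE M21 transcript sequences on GRCm38, and has the stop codon in capitals.
Srsf3-201: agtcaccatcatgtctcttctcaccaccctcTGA
Tra2a-202: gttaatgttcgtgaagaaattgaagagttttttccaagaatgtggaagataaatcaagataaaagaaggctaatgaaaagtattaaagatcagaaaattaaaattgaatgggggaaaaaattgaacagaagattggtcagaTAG
Rbm39-225: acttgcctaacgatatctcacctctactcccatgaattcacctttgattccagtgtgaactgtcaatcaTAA
Ccnl1-203: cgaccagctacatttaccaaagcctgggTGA
Son-212: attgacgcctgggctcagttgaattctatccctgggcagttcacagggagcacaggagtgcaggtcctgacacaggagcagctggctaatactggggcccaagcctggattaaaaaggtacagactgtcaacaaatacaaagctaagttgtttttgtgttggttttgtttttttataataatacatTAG
Ccdc9-211: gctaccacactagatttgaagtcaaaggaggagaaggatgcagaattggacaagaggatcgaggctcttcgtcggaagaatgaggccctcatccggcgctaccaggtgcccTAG
Tial1-204: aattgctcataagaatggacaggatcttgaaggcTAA
Pabpc4-208: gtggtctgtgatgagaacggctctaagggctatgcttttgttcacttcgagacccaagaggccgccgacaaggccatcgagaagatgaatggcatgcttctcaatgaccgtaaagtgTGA
On GRCm38 the runs lie at chr17:29039454-29039487 (plus strand) in Srsf3-201, chr6:49252965-49253108 (minus strand) in Tra2a-202, chr2:156178881-156178952 (minus strand) in Rbm39-225, chr3:65955246-65955276 (minus strand) in Ccnl1-203. The runs tied to knockdown lie at chr16:91671349-91671537 (plus strand) in Son-212, chr7:16284262-16284375 (minus strand) in Ccdc9-211, chr7:128447071-128447107 (minus strand) in Tial1-204 and chr4:123288959-123289078 (plus strand) in Pabpc4-208.
In Srsf3-201, Tra2a-202, Rbm39-225, Ccnl1-203 and Tial1-204 the whole stretch lies in an exon that the main coding transcript lacks: exon 4 of 7 in Srsf3-201 (456 bases), exon 2 of 9 in Tra2a-202 (306 bases), exon 3 of 18 in Rbm39-225 (73 bases), exon 4 of 12 in Ccnl1-203 (147 bases) and exon 6 of 13 in Tial1-204 (377 bases). The other 3 read past the end of a coding exon: 72 of the 189 bases shown for Son-212, 9 of the 114 for Ccdc9-211 and 4 of the 120 for Pabpc4-208 lie outside exons of coding transcripts. From the stop codon to the last exon junction, Ccdc9-211 has 136 bases and 2 junctions, Srsf3-201 has 548 bases and 3 junctions, and Son-212 has 3020 bases and 5 junctions.

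Over all members, the stop codon lay 50 or more bases before the last exon junction in 5131 of the 5160 that have an annotated stop. The median distance was 336.5 bases (quartiles 159 and 748), with a median of 3 junctions after the stop. TGA was the stop codon in 2975 members, TAA in 1174 and TAG in 1011. In 3062 members the stop lay in an exon that coding transcripts also use, read in another frame or reached by another route, and in 1664 it lay outside the coding exons of the gene. A further 357 shared their stop codon with a coding transcript, and 77 came from genes with no coding transcript. Against the main coding transcript, 1420 members differed by skipped exons alone, and in 1284 of these the skipped bases were not a multiple of 3. Another 939 differed by extra exons alone, 1427 by shifted splice sites alone, and 205 retained an intron. The median member was 1277 bases long with 7 exons and 300 coding bases, against a median length of 1871 bases for protein-coding transcripts. The annotation is uneven in quality: 1745 members had support level 1, the best, 1965 had level 5, the lowest, and 1488 had an incomplete coding start. Members shared genes, so they are not independent of each other: 1131 genes had 2 or more members, and Tmem234 had 13.

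Few members were abundant. Over the 18 libraries, 568 had no reads, 1490 (these included) had a mean under 1, 842 reached a mean of 100, and the median of the means was 6.7 reads. The libraries held 27033439 to 54096338 estimated reads. Gene levels are given as CPM, which are reads scaled to library size and to the TMM factor of each library, as in the gene tests. Between days the factor matters: with library totals alone, the median gene shifted by -1.63 in control, on the log2 scale. At Day 0, Pcbp1 fell from 186, 197 and 206 CPM in control to 14.2, 59.4 and 24.3 in PCBP1 libraries. At Day 2 it fell from 241, 281 and 284 to 15.7, 57.2 and 40.4. Pcbp2 fell from 282, 285 and 299 CPM to 71.0, 70.3 and 73.5 in PCBP2 libraries at Day 0, and from 229, 225 and 247 to 39.5, 37.0 and 48.0 at Day 2. Erythroid markers, of which 9 of 10 were found, summed to 2250 to 2940 CPM at Day 0 and to 213000 to 389000 CPM at Day 2, where the controls (266000 to 389000) lay above the PCBP1 libraries (213000 to 220000) and the PCBP2 libraries (213000 to 265000). At Day 2 neutrophil markers summed to 213 to 316 CPM (640 to 760 at Day 0), megakaryocyte markers to 519 to 658 CPM (203 to 254 at Day 0), macrophage markers to 8.91 to 14.4 CPM, mast cell and basophil markers to 2.29 to 6.0 CPM, lymphoid markers to 7.5 to 19.9 CPM, endothelial and stromal markers to 14.4 to 22.9 CPM, and hepatocyte markers to at most 0.39 CPM. In these bulk libraries, fewer cells of a type and less RNA per cell cannot be told apart.

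NMD transcripts took between 1.863% and 2.438% of annotated reads, and a larger share at Day 2 than at Day 0. At Day 0 they held 1.899%, 1.863% and 1.884% of annotated reads in the SCR-1, SCR-2 and LUC-1 controls, 1.992%, 1.976% and 1.961% with PCBP1 hairpins SH1, SH3 and SH4, and 1.927%, 1.987% and 1.901% with PCBP2 hairpins. At Day 2 the same order gave 2.217%, 2.074% and 2.242% in control, 2.275%, 2.302% and 2.128% in PCBP1 and 2.31%, 2.312% and 2.438% in PCBP2 libraries. Every Day 2 library lay above every Day 0 library. The control mean went from 1.88% ± 0.0181 to 2.18% ± 0.0906 (SD, n = 3), a log2 ratio of 0.21. Within Day 0 the 3 PCBP1 libraries lay above all controls by a log2 ratio of 0.071, and the 3 PCBP2 libraries by 0.043. Within Day 2 the PCBP2 libraries lay above the controls by 0.112, whereas PCBP1 and control overlapped (0.037).

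What the total was divided by decided the direction between days. Globin mRNAs take much of the Day 2 reads, and outside globin genes the control share of NMD reads went from 1.89% ± 0.0175 to 3.16% ± 0.186 (SD, n = 3). Of the reads of their own genes, members held 8.94% ± 0.0765 at Day 0 and 15% ± 0.801 at Day 2 in control (SD, n = 3). By TPM of all genes, globins included, which divides reads by effective length, the same controls went down, from 1.77% ± 0.019 to 1.25% ± 0.0728 (SD, n = 3). By TPM without globin genes, a setting chosen after the data were seen, the controls went up, by a log2 ratio of 0.616. The rise in reads also rested on a pair of transcripts, Gpcpd1-213 and Slc2a1-204. Without them, a setting chosen after the data were seen, the members held 1.854% to 1.985% at Day 0 and 1.725% to 2.083% at Day 2, with a log2 ratio in control of -0.06. The 12 most read members held 10.9% to 11.8% of all NMD reads at Day 0 and 34.3% to 36.8% at Day 2. The median member's share of its gene, over 3713 members, was 0.963% to 1.1% in the Day 0 libraries and 1.23% to 1.78% at Day 2, so the ordinary member was a small part of its gene on both days. Within a day, PCBP1 against control at Day 2 also changed direction: outside globin genes the PCBP1 libraries lay at a log2 ratio of -0.07 to control, and per host gene at -0.09. The other 3 knockdown comparisons within a day stayed above 0 with each denominator.

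**Figure D1:**
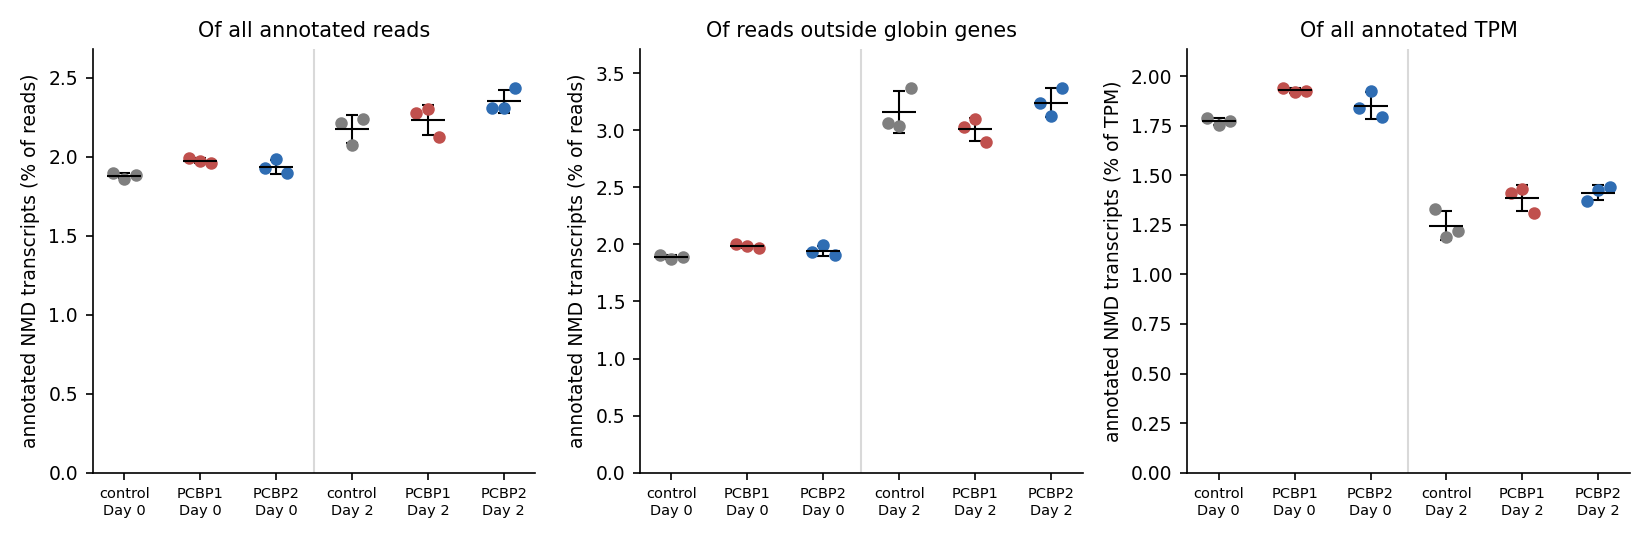
Percent of reads or TPM on annotated NMD transcripts in each of the 18 libraries (dots) with the group mean and SD (n = 3), by day and hairpin target. The 3 panels use all annotated reads, reads outside globin genes, and TPM of all genes, globins included, as the denominator. The Day 2 libraries are above the Day 0 libraries in the first 2 panels and below them in the TPM panel.

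Reads are assigned to these transcripts by an estimate, and a second deposited readout gave lower median values for junctions of the same isoforms. The authors' deposited tables of splicing variations give the percent spliced in (PSI) of junctions in pooled libraries. A junction used by no annotated transcript of another type is called private here, and 4695 members have one. Members of the same gene can share a private junction, so its PSI need not belong to 1 member alone. Share and PSI are also unlike measures. The share is taken over all reads of the gene and is not divided by transcript length. The PSI is the use of a junction within its local splicing variation. For 529 members with such a PSI on both days and a mean of 100 reads, the median share of the gene's reads in control was 8.32% at Day 0 while the median PSI of the private junction was 1.7%. At Day 2 the medians were 13.2% and 4.65%. A junction can be listed under both of its exons, and these values take its lowest deposited PSI. With its highest, an alternative chosen after the data were seen, the median PSI was 2.4% at Day 0 and 7.37% at Day 2, and 77 rather than 82 of the members with a Day 0 share over 10% were under a PSI of 1%. Across these members Spearman's rho between share and PSI was 0.14 at Day 0 and 0.08 at Day 2, as a description over transcripts that share libraries. Of 232 members with a Day 0 share over 10%, 82 had a PSI under 1%, and 17 of the 20 most read had a share more than 10 points above the PSI. In the other direction, 6 members had a PSI over 10% and a share under 1% at Day 0, and 3 at Day 2. All these members were kept by their estimated reads, from which the share is also made, so the choice itself favors a share above the PSI. Slc2a1-204, of the glucose transporter Glut1, had a mean share of 34.8% beside a PSI of 1.1% at Day 0, and 40.6% beside 0.8% at Day 2. Rnf10-206, of a RING-finger ubiquitin ligase, had 22.4% beside 0.0% at Day 0. Fbxo22-205, of an F-box protein, had 51.4% beside 0.2%. The readouts were closer for Ccnl1-203, of cyclin L1, a cyclin of splicing-linked kinases, with a share of 23.0% and a PSI of 21.7% at Day 0 and 39.6% and 47.8% at Day 2. Since the measures differ, the values need not be equal, and which of them is nearer to the true isoform share was not tested.

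**Figure D2:**
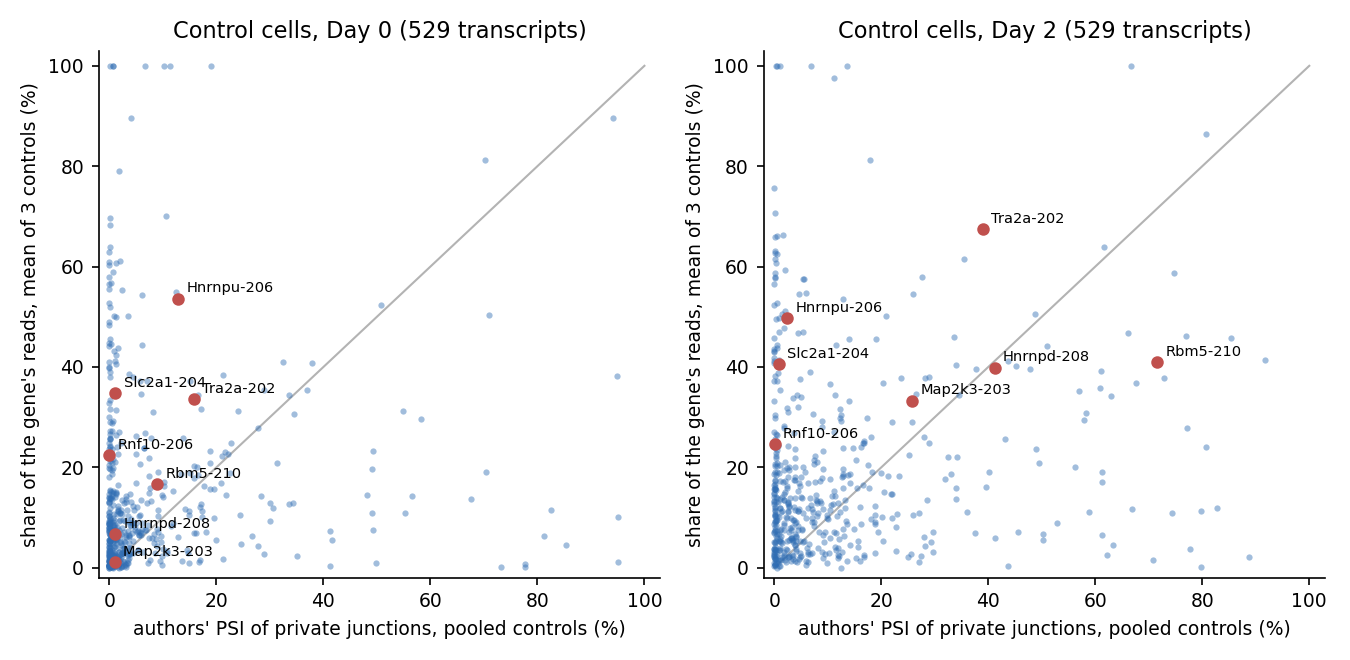
Mean share of the gene's reads in control libraries (percent, vertical axis) against the deposited PSI of the private junction (percent, horizontal axis) for 529 NMD transcripts, at Day 0 and Day 2, with a line where both are equal. Most points lie above the line, with Slc2a1-204 and Rnf10-206 near a PSI of 0, whereas Hnrnpd-208 lies near it at Day 2 (39.9% against a PSI of 41.2%).

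Between Day 0 and Day 2 in control, 583 of 2818 tested members took a larger share of their gene's reads and 133 a smaller one, 20.7% and 4.72% of those tested (edgeR's quasi-likelihood test, Benjamini-Hochberg adjusted p under 0.05). The background was 17.5% higher and 9.14% lower among all 40049 transcripts tested, so the share called higher was near that of transcripts in general. The median log2 change of the share was 0.49 over members and 0.095 over all transcripts. In PCBP1 libraries 483 members were higher and 106 lower, against a background of 15.8% and 7.68%, and in PCBP2 libraries 597 were higher and 145 lower, against 18.7% and 9.96%. Of the 583 higher in control, 401 (68.8%) were also higher in the PCBP1 libraries, where they made up 83.0% of the higher members, and 381 were higher in all 3 conditions, with 51 lower in all 3. With a trend on GC content removed from the fit, the control split went from 583 higher and 133 lower (81.4% higher) to 486 and 219 (68.9%), the PCBP1 split from 483 and 106 to 401 and 214, and the PCBP2 split from 597 and 145 to 494 and 259. The 583 higher members came from 509 genes, whose own level rose for 299 members, fell for 211 and was not called for 73. Among all 1986 genes with a tested member, counted per gene, 694 rose, 1061 fell and 231 were not called. Larger shares thus occurred in rising and in falling genes. The first split had more risers than fallers and the second had fewer. The units differ, since a gene with several higher members counts more than once in the first split. The difference between the splits was not tested.

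Other noncoding isoforms moved at least as often. Retained-intron transcripts were called higher in 31.8% of 9484 and lower in 4.05%, and processed transcripts higher in 23.0% of 4669 and lower in 3.81%. Protein-coding transcripts went the other way, with 10.2% of 22176 higher and 13.0% lower. Within the genes that hold a member, 1306 of 4179 retained-intron transcripts (31.3%) were higher, and 1076 of 6828 coding transcripts (15.8%) were lower. Retained-intron transcripts held 3.14% to 3.39% of reads at Day 0 and 4.138% to 4.752% at Day 2. Among the members, those with a stop outside the coding exons were called higher in 244 of 943 (25.9%), those with a stop in a coding exon in 300 of 1658 (18.1%), and those sharing a stop with a coding transcript in 39 of 204 (19.1%). By kind of splicing, the members called higher were 121 of 531 (22.8%) for extra exons alone, 157 of 744 (21.1%) for skipped exons alone, 155 of 799 (19.4%) for shifted sites alone and 32 of 144 (22.2%) for a retained intron. None of these differences between classes was tested.

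**Figure D3:**
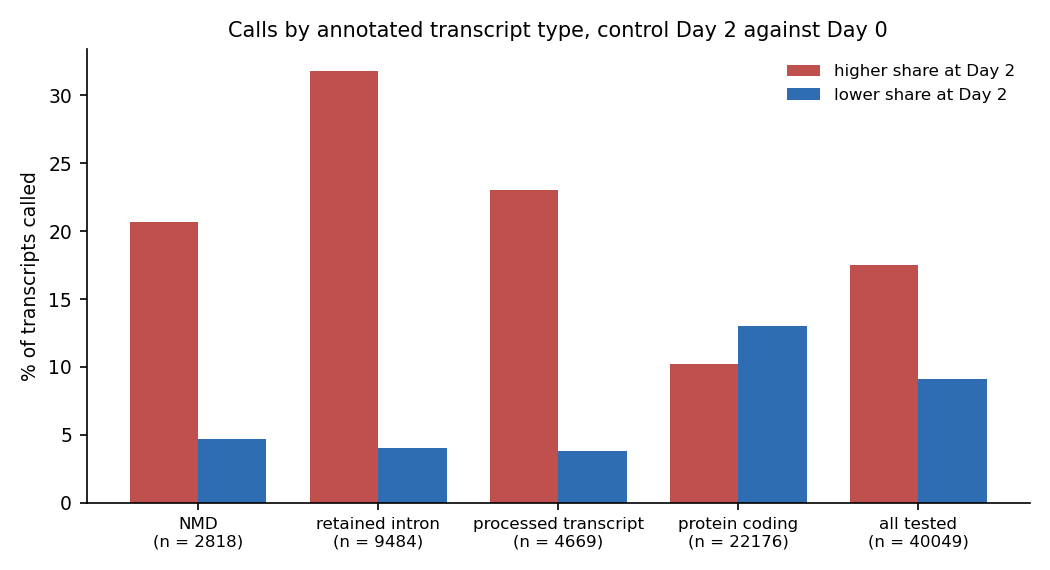
Percent of transcripts of each annotated type called higher or lower in share of the gene at Day 2 against Day 0 in control libraries (bars from 0; numbers tested under each type). NMD transcripts (20.7% higher) lie between all transcripts (17.5%) and retained-intron transcripts (31.8%), and protein-coding transcripts are the type with more lower than higher calls.

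On the level of the transcript itself, scaled with TMM, 850 of 2866 tested members rose and 596 fell at Day 2 in control, against a background of 30.4% and 30.6% of 46901 transcripts. This split depended on the scaling: with library totals, which shifted the median of all transcripts by -1.3 on the log2 scale, 498 rose and 1118 fell.

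Several of the most read members belonged to genes that rose strongly between the days. Gpcpd1-213 (chr2:132529082-132578235, minus strand), from a glycerophosphocholine phosphodiesterase gene, lacks a 76-base exon, and it held 31.5%, 25% and 16.9% of its gene's reads in the Day 0 controls and 63.3%, 65.2% and 61.4% at Day 2. The share rose by 1.37 (SE 0.18, edgeR adjusted p = 5.28e-05), while the gene rose by 7.71, both on the log2 scale. Slc2a1-204 (chr4:119108914-119137330) skips a 163-base exon, and its control shares of 34.0%, 31.8% and 38.7% overlapped the Day 2 shares of 39.8%, 38.6% and 43.3%, although the test called it higher (log2 0.22, edgeR adjusted p = 0.0348). Its gene rose by 5.49 on the log2 scale. Azin1-205, from the antizyme inhibitor that controls polyamine levels, uses shifted splice sites and went from 18.5%, 15.9% and 20.3% to 37.1%, 38.5% and 37.9% (log2 1.05, SE 0.08, edgeR adjusted p = 8.34e-07). The private-junction PSI of Azin1-205 moved the same way, from 7.35% to 23.6%. Wdr26-201, from a subunit of a ubiquitin ligase that acts in erythroid maturation, went from 15.5%, 17.1% and 12.9% to 30.3%, 32.6% and 30.4% (log2 1.04, edgeR adjusted p = 2.9e-06). Ddx5-208, an isoform of an RNA helicase with a retained intron, went from 26.3%, 24.2% and 23.4% to 42.9%, 42.4% and 34.7% (log2 0.7, edgeR adjusted p = 1.3e-05). In all 3 the 2 days did not overlap, as in 1192 of all 2818 tested members.

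Of the other members among the 12 most read, 2 were called. Gpcpd1-212 rose from 2.13%, 3.0% and 4.8% to 9.93%, 10.5% and 10.9%, and Smc4-207, of a condensin subunit, from 49.5%, 43.1% and 40.6% to 54.6%, 56.8% and 61.4% (edgeR adjusted p = 0.00708). Mdm2-209, of the ubiquitin ligase that controls p53, missed the threshold with 24.5%, 40.6% and 29.5% against 49.4%, 44.8% and 42.3% (edgeR adjusted p = 0.0607). Arrdc3-203 (0.0587), Hnrnpu-206 (0.0965), Rnf10-206 (0.244) and Ppia-201 (0.572) missed it too. Hnrnpu-206, which the annotation marks as a readthrough transcript, held 52.2%, 53.2% and 55.3% of the reads of its gene in the Day 0 controls. Per length, Ppia-201, of the abundant cyclophilin A, had the highest TPM of these 12, with a mean of 880 over the libraries beside 370 for Gpcpd1-213.

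The list of SR proteins and Tra2 activators, which bind exonic enhancers, also holds SR-related genes such as Son, Rsrc2 and the Clk kinases. Of its 29 tested members, 15 rose, 3 fell and the rest were not called in control, beside 17.5% higher and 9.14% lower of all transcripts, with a median log2 change of 0.8 against 0.095 over all transcripts. Srsf3-201, whose poison exon ends in the TGA printed above, held 11.7%, 12% and 13.8% of Srsf3 reads in the Day 0 controls and 66.5%, 67.0% and 76.5% at Day 2. Its share rose by 2.49 (SE 0.07, edgeR adjusted p = 1.57e-10) while the level of the gene differed by 0.02, on the log2 scale. In the PCBP1 libraries Srsf3-201 held 15.3%, 14.3% and 15.2% at Day 0 and 63.7%, 67.2% and 62.3% at Day 2, and in the PCBP2 libraries 14.1%, 14.1% and 14.6% and then 67.4%, 64.9% and 71.1%. The days lay far apart in all 3 conditions. Tra2a-202 rose from 35.0%, 36.2% and 29.7% to 67.3%, 68.4% and 66.9% (log2 1.01, SE 0.08, edgeR adjusted p = 7.74e-07), and its private-junction PSI from 15.8% to 39.0%. Srsf1-204, Srsf2-202, Srsf5-208, Srsf6-201, Srsf11-206 and Tra2b-206 were among the other members that rose. The 3 that fell were Son-208, of the nuclear speckle scaffold Son (log2 -0.4, edgeR adjusted p = 0.0427), Clk4-212 and Rsrc2-206. Clk1-210, which lacks an exon of a kinase that phosphorylates SR proteins, had 19.6%, 19.2% and 19.7% at Day 0 and 17.1%, 13.0% and 14.0% at Day 2 and was not called (edgeR adjusted p = 0.228).

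Members of hnRNP and PTB genes, which encode RNA-binding proteins that often oppose SR proteins, rose in 14 of 33 tested cases, fell in none by the same test, and had a median log2 change of 0.52, beside 17.5% higher, 9.14% lower and a median of 0.095 over all transcripts. Hnrnpd-208, of the AU-rich element binding protein Auf1, shares its stop codon with a coding transcript and adds a 107-base exon after it. It rose from 6.08%, 6.93% and 7.25% to 36.6%, 41.0% and 42.2% (log2 2.56, SE 0.11, edgeR adjusted p = 5.5e-09) at a gene level that differed by -0.06, and its PSI rose from 1.05% to 41.2%. Ptbp3-213, of a polypyrimidine tract binding protein found in blood cells, lacks a 170-base exon and rose from 0.348%, 0.486% and 0.198% to 6.63%, 6.74% and 5.38% (log2 4.17, SE 0.32). Tardbp-228, of TDP-43, rose from 11.9%, 13.2% and 14.5% to 17.5%, 20.1% and 19.4% (log2 0.52, edgeR adjusted p = 0.000403). Of the hairpin targets and their relatives, Pcbp1, Pcbp2 and Runx1 had no member, Pcbp3-202 and Pcbp4-202 were close to 0 (mean CPM 0.0113 and 0.00509), and Hnrnpk-203, of the related KH-domain protein hnRNP K, rose from 0.456%, 0.574% and 0.339% to 0.725%, 1.61% and 0.947% (log2 1.26, edgeR adjusted p = 0.0106). The junction readout of Hnrnpk-203 went the other way, from a PSI of 41.3% to 27.1%.

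Core spliceosome genes had 14 members that rose and 1 that fell of 36 tested, with a median log2 change of 0.85, beside 17.5% higher and 9.14% lower of all transcripts. Of the 48 genes of this list 34 fell in level, beside 42.4% of all genes. Rbm39-225, of a U2AF-related splicing factor, carries a 73-base extra exon and rose from 16%, 16.7% and 15.5% to 34.1%, 36.5% and 35.2% (log2 1.13, SE 0.11, edgeR adjusted p = 3.82e-06). Rbm5-210, of a splicing factor that acts on apoptosis genes, lacks a 74-base exon and rose from 16%, 17.6% and 16.2% to 41.5%, 37.9% and 43.7% (log2 1.3, SE 0.16, edgeR adjusted p = 2.94e-05), with a PSI of 8.9% at Day 0 and 71.5% at Day 2. Luc7l2-204, of a U1-associated protein, had 14.9%, 12.8% and 11% and then 12.7%, 8.69% and 11.6% and was not called (edgeR adjusted p = 0.25). U2af1l4-222 was the 1 that fell.

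Ribosomal protein genes had 3 members that rose and none that fell of 9 tested (edgeR; median log2 change 0.9), beside 17.5% higher and 9.14% lower of all transcripts. Rpl22l1-204, of the paralog of Rpl22, uses a shifted splice site and rose from 3.13%, 3.28% and 2.75% to 37.0%, 35.9% and 51.5% (log2 3.76, SE 0.18, edgeR adjusted p = 9.7e-09). Rps19-205, of a small-subunit protein mutated in Diamond-Blackfan anemia, rose from 2.99%, 3.03% and 2.91% to 7.19%, 8.3% and 14.0%, with the LUC-1 library the highest. Rpl3-205 rose from 6.97%, 6.62% and 6.12% to 15.6%, 20.5% and 25.6% (log2 1.64, edgeR adjusted p = 7.32e-06). Erythroid genes, read against the same background, had 4 risers and no fallers among 10 tested members (edgeR; median log2 change 0.83): Slc2a1-204, Tpm1-218 and 2 isoforms of Ank1, which ties spectrin to the red cell membrane. Ank1-210 rose from 3.19%, 5.08% and 3.45% to 10.3%, 11.5% and 13.6% (log2 1.6, SE 0.21, edgeR adjusted p = 7.31e-05). Tpm1-220, of tropomyosin, held 10.4%, 10.9% and 18.3% at Day 0 and 6.35%, 0.194% and 0.279% at Day 2, and Slc25a37-204, of the mitochondrial iron importer mitoferrin, 1.62%, 1.9% and 1.67% and then 1.61%, 2.27% and 4.04%. Neither was called (edgeR adjusted p = 0.0594 and 0.135).

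Genes reported elsewhere as NMD targets had 8 members that rose and 3 that fell of 15 tested, with a median log2 change of 1.01, beside 17.5% higher and 9.14% lower of all transcripts. Ccnl1-203, with the 147-base extra exon shown above, rose from 22.8%, 24.2% and 21.8% to 37.8%, 38.3% and 42.5% (log2 0.78, SE 0.12, edgeR adjusted p = 0.000251). Ccnl2-202, of the sister cyclin, rose from 23.5%, 25.4% and 22.7% to 30.2%, 31.1% and 31.0% (log2 0.37, edgeR adjusted p = 0.0261). A second Ccnl1 isoform with a 73-base extra exon, Ccnl1-205, held 25.5%, 24.3% and 21.3% at Day 0 and 14.8%, 13.2% and 19.9% at Day 2, below the Day 0 range in all 3 but without a call (log2 -0.57, edgeR adjusted p = 0.0744). The decay factors had 4 members of their own. Smg1-204 held 0.452%, 1.29e-05% and 0.337% of Smg1 reads at Day 0 and 21.1%, 22.9% and 29.6% at Day 2, and the test called it higher (edgeR adjusted p = 0.00844). Smg6-202 went from 3.08%, 1.23% and 0.112% to 15%, 4.92% and 18% without a call (edgeR adjusted p = 0.0963), beside a PSI of 0.1% at Day 0 and 11% at Day 2.

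**Figure D4:**
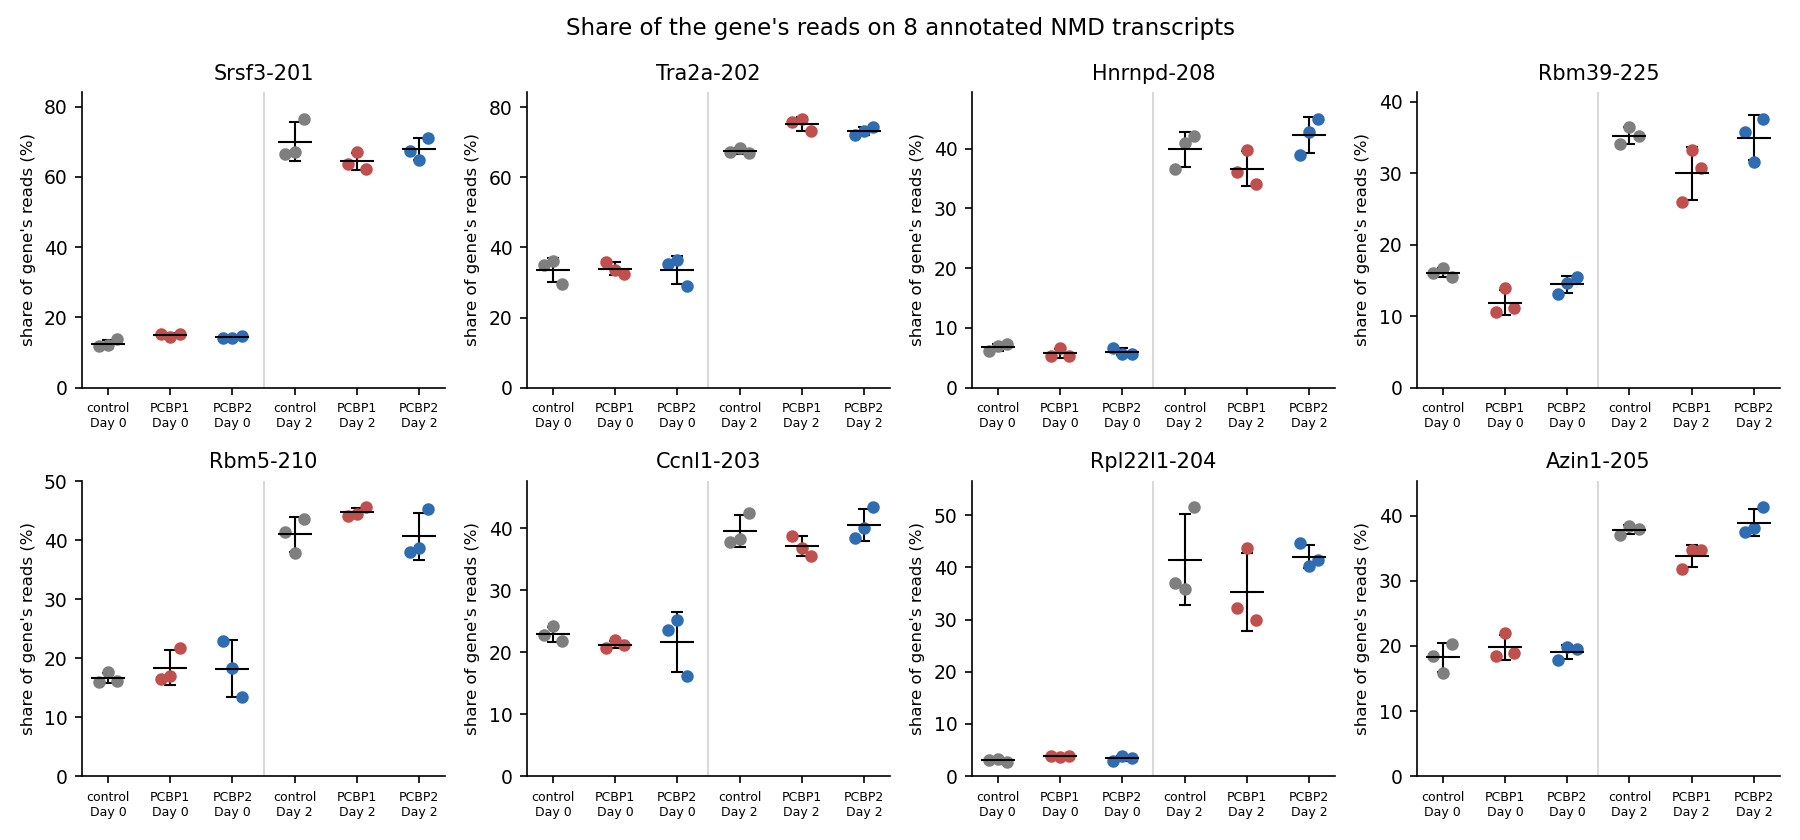
Share of the gene's reads (percent) of 8 NMD transcripts in each library (dots) with the group mean and SD (n = 3), at Day 0 and Day 2 for control, PCBP1 and PCBP2 libraries. The 8 were chosen among members called higher in control, so their direction there follows from the choice. Named members of the same lists that fell or were not called are not shown. The Day 2 dots lie above the Day 0 dots in all 8, by most in Srsf3-201, Hnrnpd-208 and Rpl22l1-204.

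The members with the largest called changes were often at 0 on 1 of the days, where a fold change is not defined. Most of these calls also depended on the model: with the hairpin as a replicate block in the fit, 13 of the 16 named in control were lost. Pgs1-202 was at 0% in all 3 Day 0 controls and at 30.5%, 36.5% and 51.9% at Day 2, and Wnk4-203 at 0% and then 18.5%, 28.7% and 14.3%. In the other direction Mboat7-203 went from 36.8%, 37.6% and 46.5% to 0%, 0% and 0.0153%, and Tnfaip2-211 from 1.68%, 4.37% and 2.72% to 0% in all 3. Srpk1-201, of an SR protein kinase, went from 13.0%, 11% and 13.3% to 4.53%, 0.0506% and 0%. These shares are ratios of estimated counts, and the private-junction PSI is a second value where it exists. Of 423 members called higher in control with a PSI on both days, the PSI was higher at Day 2 in 361 (85.3%), lower in 42 and equal in 20, with medians of 1.0% and 7.05%. Among 962 members with a PSI whose share was not called, the PSI was higher in 617 (64.1%), and over all 1442 it was higher in 996 (69.1%). Of 57 members called lower, the PSI was lower in 33 and higher in 18. The PSI of the 2 days comes from separate deposited tables and from pooled libraries, with no error of its own.

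The genes that carry out decay moved between days in both directions. Of 23 NMD factor genes, 11 rose and 11 fell at Day 2 in control, against a background of 40.4% of 17500 genes rising and 42.4% falling. Upf2, which bridges Upf1 to the junction complex, rose from 47.3, 47.6 and 46.5 CPM to 198, 202 and 188 (log2 2.05). The decapping enzyme gene Dcp2 fell by 3.34 and the ATPase genes Ruvbl1 and Ruvbl2 by 3.34 and 3.32, on the log2 scale. Of 12 genes of the exon junction complex and its partners, 2 rose and 9 fell. Acin1 rose by 2.07, and the core helicase Eif4a3 fell from 85.1, 93.0 and 100 CPM to 24.9, 27.3 and 23.6 (log2 -1.88). Library totals shifted the median gene by -1.63 (log2), and under that scaling 2 NMD factor genes rose and 20 fell, and 1 exon junction complex gene rose and 11 fell. Upf2 and Acin1 rose there too, by 0.42 and 0.44.

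At Day 0, PCBP1 knockdown raised the share of 6 members and lowered none of 2818 by edgeR, with 219 at an unadjusted p under 0.05. The background was 0.0799% higher and 0.0549% lower. Dhrs11-202, a shifted-site isoform of a short-chain dehydrogenase gene, held 10.9%, 11.1% and 9.56% in control and 21.3%, 17.4% and 21.4% with PCBP1 hairpins SH1, SH3 and SH4 (log2 0.92, SE 0.09, edgeR adjusted p = 0.000672). The PCBP2 libraries had 10.7%, 10.1% and 11.7%, within the range of control. The Dhrs11 gene itself fell by 0.87 on the log2 scale (edgeR adjusted p = 0.00468). Ccdc9-211, from a coiled-coil protein gene, held 1.25%, 1.15% and 0.727% in control and 3.92%, 3.55% and 5.12% with PCBP1 hairpins (log2 2.02, SE 0.22, edgeR adjusted p = 0.0019). PCBP2 libraries were between them, at 1.77%, 2.41% and 1.73%, and were not called (edgeR adjusted p = 0.554). The deposited junction readout moved the same way for both members, from a PSI of 24.4% to 42.2% for Dhrs11-202 and from 3.5% to 17.7% for Ccdc9-211. Ccdc9-211 lost its call (adjusted p = 0.0686) when edgeR was fitted to the 9 libraries of Day 0 alone, and Dhrs11-202 kept it under each alternative run.

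The other 4 called at Day 0 were less firm. Hax1-210, of a mitochondrial survival protein, had 2.95%, 3.62% and 3.76% in control and 7.63%, 5.57% and 7.51% with PCBP1 hairpins (edgeR adjusted p = 0.0114), and it lost the call without SH1, SH4 or control SCR-1 (adjusted p 0.0559 to 0.0642). Slc6a9-207, of the glycine transporter that feeds heme synthesis, had 9.19%, 10.5% and 8.57% and then 14.6%, 16.9% and 12.4% (edgeR adjusted p = 0.0349), and lost it without SH1, SH3, LUC-1 or SCR-1 (0.0801 to 0.127). Son-212 had 12.5%, 12.3% and 11.8% and then 15%, 14.2% and 14.8% (edgeR adjusted p = 0.0439), and lost it without any 1 of the 6 libraries (0.0643 to 0.18). Samd10-203 was at 0%, 0.447% and 0.0995% in control and at 97.2%, 1.66% and 100% with PCBP1 hairpins, in a gene of 0.797 to 0.938 CPM. Without SH1 or without SCR-1 the count of members called fell from 6 to 3, and in the fit to the 9 libraries of Day 0 it was 3, of which 1 was shared. On the level scale 1 member rose and 1 fell (background 0.0192% and 0.0554%), and the count of 2 became 0 without SH1, SH4, SCR-1 or SCR-2 and 6 without SH3.

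PCBP2 knockdown at Day 0 called no member by edgeR in either direction, with 119 at an unadjusted p under 0.05 and 15 called by DESeq2. The background was 0.0025% higher and 0.0025% lower, and on the level scale no member was called by edgeR (background 0.00426% and 0.00853%; 10 by DESeq2). Leaving out LUC-1 or SCR-1 gave 1 call on each scale. The smallest p-values belonged to Samd10-203, at 100%, 94.8% and 93.3% beside the near-0 controls, to Gpcpd1-207, at 1.52%, 2.13% and 2.23% against 1.06%, 0.852% and 0.6% (edgeR adjusted p = 0.501), and to Gtpbp2-205, at 2.1%, 1.5% and 1.81% against 1.19%, 1.06% and 1.02% (edgeR adjusted p = 0.554).

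At Day 2, PCBP1 knockdown raised the share of 8 members and lowered that of 14 (edgeR), against a background of 0.4% higher and 0.31% lower. Members of splicing and RNA-binding genes were among those that rose, but their lists as a whole did not. The SR and Tra2 list had 2 of 29 tested members higher and a median log2 change of -0.1. The hnRNP and PTB list had 1 of 33 and -0.05. Son-212, of the speckle scaffold Son, held 11.4%, 12% and 12.5% in control and 17.0%, 17.0% and 16.7% with PCBP1 hairpins (log2 0.5, SE 0.05, edgeR adjusted p = 0.000523), while PCBP2 libraries had 11.6%, 13.1% and 12.3%. Its adjusted p stayed between 0.000628 and 0.00327 with each library left out, and diffSpliceDGE, which tests the transcripts of a gene against each other, did not call it (0.785). Tial1-204, of the RNA-binding protein TIAR, carries a 377-base extra exon and held 11.5%, 9.33% and 12.5% in control and 23.8%, 17.9% and 17.9% with PCBP1 hairpins (log2 0.84, SE 0.14, edgeR adjusted p = 0.0163). Clk2-204, which lacks an 85-base exon of an SR protein kinase, had 23.7%, 18.3% and 19.6% against 31.6%, 34.6% and 33.5% (log2 0.7, edgeR adjusted p = 0.0444). The PSI of both moved the same way, from 58.9% to 76.3% for Tial1-204 and from 17.5% to 41.1% for Clk2-204. Atp2a2-203, of the calcium pump of the endoplasmic reticulum, had 7.65%, 8.44% and 8.05% against 10.6%, 10.3% and 10.4% (log2 0.37, edgeR adjusted p = 0.0212). Ifrd2-203, of a protein found on idle ribosomes of reticulocytes, had 4.05%, 3.59% and 2.99% against 9.21%, 7.49% and 6.89% (log2 1.15, edgeR adjusted p = 0.0343). In each of these the PCBP1 libraries lay above all 3 controls, which the rule for naming them required. Among all 2818 tested members, 414 did not overlap between these groups.

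The 14 members that fell with PCBP1 knockdown at Day 2 came from genes of varied roles. Eps15-208, of an endocytic adaptor, held 24.5%, 22.6% and 16.2% in control and 4.91%, 8.68% and 6.73% with PCBP1 hairpins (log2 -1.65, SE 0.26, edgeR adjusted p = 0.0127). Pabpc4-208, of a cytoplasmic poly(A)-binding protein, held 10.4%, 15.1% and 14.2% against 6.45%, 7.08% and 6.3% (log2 -1.0, SE 0.15, edgeR adjusted p = 0.00728). Uba7-214, of the enzyme that activates the ubiquitin-like protein Isg15, held 24.5%, 22.9% and 26.2% against 13.8%, 16.4% and 14.9% (log2 -0.7, SE 0.08, edgeR adjusted p = 0.00255). In PCBP2 libraries these 3 members held 16.4%, 14.3% and 26.5%, 12.8%, 9.47% and 12.2%, and 21%, 19.7% and 20.4%. The 3 PCBP1 libraries lay below all others of Day 2, and lying below control was required by the rule for naming these members. The PSI fell from 2.0% to 0.5% for Eps15-208 but was 0.7% and 0.9% for Uba7-214 and 0.0% on both sides for Pabpc4-208. Psmc5-202, of a proteasome ATPase, had 10.5%, 10.6% and 12.1% against 6.27%, 5.41% and 5.11%, and Ube2k-209, of a ubiquitin-conjugating enzyme, 31.8%, 32.8% and 36.9% against 20.8%, 26.2% and 23.5%. The ribosomal members Rpl10a-203 (4.86%, 3.71% and 7.87% against 1.81%, 2.76% and 1.69%) and Rps9-210 (0.997%, 1.07% and 1.63% against 0.554%, 0.673% and 0.708%) fell as well. Pold1-208, of the catalytic subunit of DNA polymerase delta, went from 36.6%, 39.1% and 82.8% to 0%, 0% and 0.0513% in a gene of 4.69 to 10.7 CPM (edgeR adjusted p = 0.0107). The other calls on this day were Lyar-209, which rose, and Pigk-202, Slc25a38-205, Brd2-207, Fzr1-201, Kctd18-206 and Ube2w-203, which fell.

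**Figure D5:**
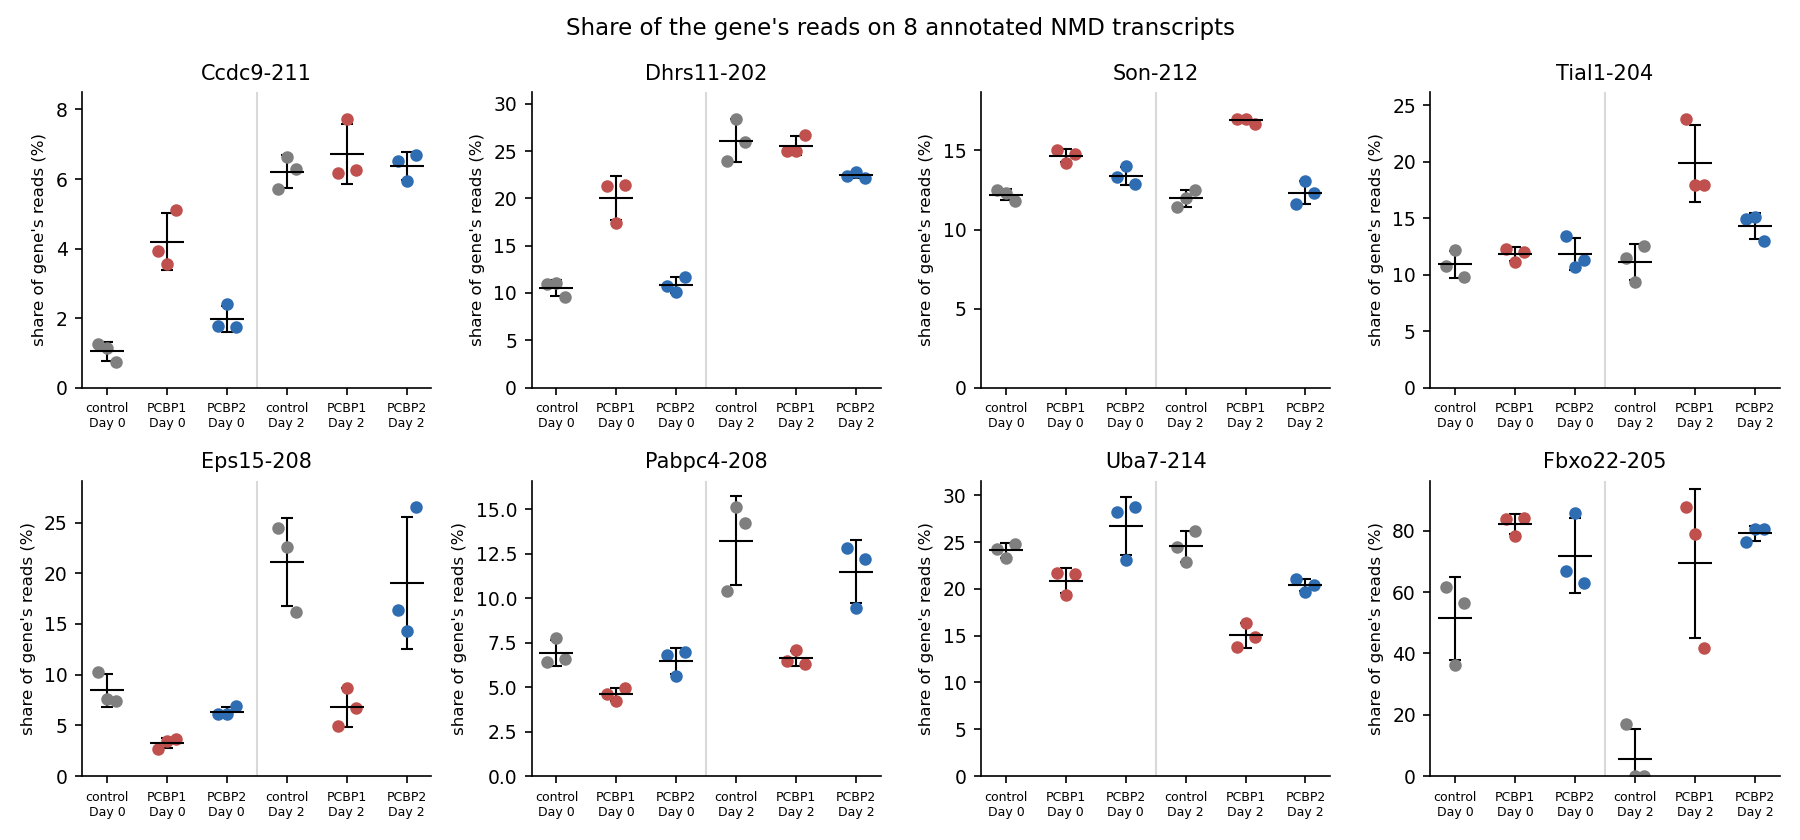
Share of the gene's reads (percent) of 8 NMD transcripts called in a knockdown, in each library (dots) with the group mean and SD (n = 3). PCBP1 libraries are above control at Day 0 for Ccdc9-211 and Dhrs11-202, above it at Day 2 for Son-212 and Tial1-204, and below it at Day 2 for Eps15-208, Pabpc4-208 and Uba7-214.

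Many Day 2 calls needed all libraries. Without 1 library, Tial1-204 (SH1 or SCR-2), Atp2a2-203 (SH1 or LUC-1), Ifrd2-203 (SH1, SH3, LUC-1 or SCR-2) and Clk2-204 (each but SCR-1) passed to adjusted p-values of 0.0512 to 0.129 in edgeR. Rpl10a-203 (SH1, SH4 or LUC-1), Psmc5-202 (each but SCR-1), Rps9-210 (each but the scrambled controls) and Ube2k-209 (SH1, SH4, LUC-1 or SCR-2) passed to 0.0629 to 0.153. Each member named so far in this paragraph also lost its call with diffSpliceDGE and in the fit to the 9 libraries of Day 2. Uba7-214 was called in every alternative except diffSpliceDGE (0.476), and Eps15-208, Pabpc4-208 and Pold1-208 in every alternative except the fit to the 9 libraries of Day 2 (0.118, 0.0923 and 0.139). The split of 8 higher and 14 lower became 3 and 8 without SH1 and 6 and 11 without SH3. It turned to 10 and 5 without SH4, 7 and 6 without LUC-1, 24 and 17 without SCR-1 and 9 and 6 without SCR-2. The count of 22 was 3 in the 9-library fit, of which 2 were shared. Erythroid markers were lower in PCBP1 than in control libraries on this day (213000 to 220000 against 266000 to 389000 CPM), and their part in these shares was not tested.

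PCBP2 knockdown at Day 2 raised 2 members and lowered 1 (edgeR), against a background of 0.16% and 0.227%. Fbxo22-205 was at 16.9%, 0.00117% and 0% in control and at 76.4%, 80.5% and 80.6% in PCBP2 libraries (edgeR adjusted p = 0.0451). In PCBP1 libraries, which were compared with the same controls, it was at 87.6%, 78.8% and 41.6% (edgeR adjusted p = 0.0385). Tbl2-202 was at 0% in all 3 controls, at 2.97%, 2.11% and 0.629% in PCBP2 libraries (edgeR adjusted p = 0.0476) and at 5.46%, 3.1% and 2.9% in PCBP1 libraries, from at most 12 reads. Pold1-208 was at 0%, 3.23% and 0% in PCBP2 libraries (edgeR adjusted p = 0.0466). All 3 lost their PCBP2 call without some library: Fbxo22-205 without SH1, SH3, SH4, LUC-1 or SCR-2 (0.0583 to 0.0869), Pold1-208 without SH1, SH4, LUC-1 or SCR-2 (0.0552 to 0.115) and Tbl2-202 without SH1, SH3, LUC-1, SCR-1 or SCR-2 (0.0516 to 0.101). Fbxo22-205 lost its PCBP1 call without SH1, SH3, LUC-1 or SCR-2 (0.064 to 0.0989). The PCBP2 count of 3 was 5 without SH3, 1 without LUC-1, 19 without SCR-1 and 10 without SCR-2. Among members not called, Smc4-207 had 54.6%, 56.8% and 61.4% in control and 65.7%, 76.9% and 72.5% in PCBP2 libraries (edgeR adjusted p = 0.174), and Clk1-210 had 17.1%, 13.0% and 14.0% against 7.42%, 8.9% and 6.68% (log2 -0.94, edgeR adjusted p = 0.103). Slc2a1-204 had 51.4%, 46.0% and 51.7% in PCBP1 libraries against 39.8%, 38.6% and 43.3% in control (edgeR adjusted p = 0.0845).

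By level at Day 2, 24 members rose and 46 fell with PCBP1 hairpins (background 1.4% and 1.86%), and 3 rose and 4 fell with PCBP2 hairpins (0.188% and 0.731%). Scaled by library totals, which shifted the median of all transcripts by 0.2 and 0.19 (log2), the splits became 61 and 27, and 12 and 2. The PCBP1 count of 70 was 33 without SH1, 34 without SH4 and 36 without LUC-1, and the PCBP2 count of 7 was 13 without SH1, 12 without LUC-1, 27 without SCR-1 and 18 without SCR-2.

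The PCBP1 effect itself differed between days for 3 members, all lower at Day 2 than at Day 0 (edgeR, interaction term; background 0.0325% higher and 0.03% lower). Ccdc9-211 reached 5.71%, 6.64% and 6.29% in the Day 2 controls, close to the 6.18%, 7.73% and 6.26% of the PCBP1 libraries, and the difference in effect was -1.9 on the log2 scale (SE 0.29, edgeR adjusted p = 0.037). Dhrs11-202 reached 23.9%, 28.4% and 26.0% in the Day 2 controls and 25%, 25% and 26.7% in the PCBP1 libraries (difference in effect -0.95, SE 0.12, edgeR adjusted p = 0.0118). For both members PCBP1 and control were apart at Day 0 and overlapped at Day 2. Pold1-208 was the third (edgeR adjusted p = 0.037), with groups at 0. With the hairpin as a replicate block in the fit, all 3 calls were lost. The count of 3 was 1 without SH1, SH4, SCR-1 or SCR-2 of Day 0 or SH4 of Day 2, 5 without SH3 of Day 0, and 9 and 6 without SCR-1 and SCR-2 of Day 2. No member differed in the PCBP2 effect by edgeR (background 0.02% and 0.025%), with 193 at an unadjusted p under 0.05 and 24 called by DESeq2. That count of 0 was 1 without SH3 or LUC-1 of Day 2 or SCR-1 of Day 0, 6 without SCR-1 of Day 2 and 3 without SCR-2 of Day 2.

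The lists were read against a background, over all transcripts, of 0.0799% higher and 0.0549% lower for PCBP1 at Day 0, 0.4% and 0.31% for PCBP1 at Day 2, and 0.16% and 0.227% for PCBP2 at Day 2. Of the SR and Tra2 list (29 tested), 1 rose with PCBP1 hairpins at Day 0 (Son-212) and 2 at Day 2 (Son-212 and Clk2-204), with median log2 changes of 0.17 and -0.1. Of the hnRNP and PTB list (33 tested), 1 rose at Day 2 (Tial1-204; median -0.05). The ribosomal list (9 tested) had 2 members that fell at Day 2 with PCBP1 hairpins, with a median of -0.89, the erythroid list (10 tested) had 1 that fell, Slc25a38-205, of a mitochondrial glycine carrier, and the reported targets (15 tested) had Tbl2-202 alone in each knockdown at Day 2. No core spliceosome member of 36 tested was called in a knockdown by edgeR.

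The authors' deposited splicing tables give a posterior probability for a change of 20 points, and a junction entry was called here at a probability of 0.95. For PCBP1 at Day 0, 3 of 5233 entries of private junctions were called (2 of 3606 junctions), beside 102 of all 573132 entries (0.0178%). In the authors' deposited table the junction chr5:122454304-122455893 of Atp2a2-203 went from a PSI of 12% in control to 55.3%, and chr17:34911055-34911579 of Ehmt2-208, of a histone methyltransferase, from 6.7% to 40.2%. Atp2a2-203 had shares of 13.4%, 12.5% and 13.5% in control and 14.6%, 16% and 15.9% with PCBP1 hairpins at Day 0. For PCBP1 at Day 2, 2 of 3403 private entries of the authors' deposited table were called (2 of 2294 junctions), beside 250 of 474916 in all (0.0526%): chr19:43504687-43506922 of Got1-204, of an aspartate aminotransferase, rose from 22.2% to 61.6%, and chr16:91671465-91674695 of Son-208 fell from 45.1% to 8.1% where it is counted at its downstream exon. Counted at its upstream exon, the same junction is at 2.6% and 0.9%. That junction of Son-208 starts at the exon end that Son-212 reads past, and the read shares of Son-208 were 18.9%, 15.7% and 19.4% in control and 19.9%, 22.2% and 20% with PCBP1 hairpins. For PCBP2 at Day 0, 0 of 5314 private entries were called, beside 21 of 580057 in all (0.00362%). For PCBP2 at Day 2, 2 of 3307 private entries of the authors' deposited table were called (2 of 2224 junctions), beside 77 of 469748 in all (0.0164%): chr12:87441343-87441643 of Alkbh1-207, of a nucleic acid demethylase, rose from 13.2% to 49.8%, and chr14:79350830-79351373 of Naa16-202, of an acetyltransferase subunit, fell from 60.9% to 22.3%. The mean read shares of both hardly differed, at 41.2% and 44.6% for Alkbh1-207 and 35.8% and 37.0% for Naa16-202. Of the 31 calls by read share in a knockdown, 14 had a private-junction PSI, and it moved in the same direction in 10. Any difference was counted, also one as small as 0.3% to 0.2% for Fzr1-201. All 14 were PCBP1 calls, and no such count was made for members not called.

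Genes of the decay machinery were measured beside their substrates. None of the 23 NMD factor genes was called by edgeR at Day 0 with PCBP1 hairpins (background 0.0343% of genes rising and 0.857% falling) or PCBP2 hairpins (0.0% and 0.0229%). At Day 2 with PCBP1 hairpins 2 rose and 5 fell, against 5.45% and 7.51% of all genes. Smg9, a regulator of Smg1, fell from 44.4, 54 and 55.1 CPM to 21, 25.8 and 22.8 (log2 -1.14, edgeR adjusted p = 3.41e-06), and Smg5 from 266, 319 and 393 CPM to 176, 212 and 183 (log2 -0.78, edgeR adjusted p = 7.32e-05). Upf1 fell by 0.55 and Dcp2 rose by 0.62, on the log2 scale. With library totals the balance turned to 7 that rose and 3 that fell, and these 4 genes, each still called, were at -0.9, -0.53, -0.31 and 0.84. At Day 2 with PCBP2 hairpins none rose and 3 fell (background 0.954% and 3.72%): Smg9 (log2 -0.52, edgeR adjusted p = 0.0142), Smg6 (log2 -0.45) and Ruvbl2 (log2 -0.58), and with library totals none of the 3 was called (adjusted p 0.1, 0.137 and 0.135) while 2 other NMD factor genes rose and none fell. Without SH4 the counts fell from 7 to 4 for PCBP1 and from 3 to 1 for PCBP2. Of 12 exon junction complex genes, Sap18 rose with PCBP1 hairpins at Day 0 (log2 0.53, edgeR adjusted p = 0.0317) and with PCBP2 hairpins at Day 2 (log2 0.58, edgeR adjusted p = 0.0121), and at Day 2 with PCBP1 hairpins Cwc22 rose by 0.33 while Acin1 fell by 0.28 and Casc3 by 0.31. With library totals 5 genes rose and none fell in that comparison, Acin1 at -0.04 and Casc3 at -0.08. The PCBP1 count at Day 0 was 0 without SH1, SH3, SH4, SCR-1 or SCR-2, that at Day 2 fell from 3 to 0 without SH1 or LUC-1 and to 1 without SH4 or SCR-2, and the PCBP2 count of 1 was 0 without LUC-1 and 2 without SH4 or SCR-1.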

How the data were processed

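RNA from 18 libraries was sequenced, and per the submitters' processing notes FastQC 0.11.9, Trim Galore 1.46.0, STAR 2.5.3a, SAMtools 1.9 and Salmon 0.11.3 were used on GRCm38; their order, settings and the transcript set of the Salmon index are not given in the sources used here. For each library the authors deposited an estimated count and a TPM value of every transcript, from Salmon, and TPM divides by effective length, per the file headers. The authors also deposited 4 tables of local splicing variations, which give, per the file headers, the expected use of each junction in pooled libraries as a fraction, printed here as PSI in percent, its expected change, and the posterior probability of a change of 0.20; the tool behind them is not given in the sources used here.

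Transcripts were matched to GENCODE M21 by identifier: 110403 of 111706 matched, and the 1303 others (0.2747% to 0.5788% of the estimated reads of a library) were left out. Of the members, 4964 of 5161 had the same length in the tables as in M21. A member's share is its estimated count divided by that of its gene. For tests, expected counts were rounded to whole numbers, and edgeR 4.0.16 in R 4.3.3 fitted 6 group means to the 18 libraries (quasi-likelihood test, filterByExpr, genes with 2 or more transcripts with reads), with the log of the gene's reads plus 1 as offset for shares (40049 transcripts, 2818 of them members) and TMM scaling for levels (46901 transcripts, 2866 members) and genes (17500). P-values were adjusted by Benjamini-Hochberg over all features tested, and a call is an adjusted p under 0.05. A member that passed the filter may have done so through the groups where it is high. Log2 changes of members at 0 in a group depend on the tool's prior count, so their shares are given instead. Totals are given as values; the exact permutation tests once planned for them are not reported. The PSI of a member is the mean over its private junctions of the lowest deposited value. Alternatives used limma 3.58.1 and DESeq2 1.42.0, and the scripts were tested on simulated data.

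Named transcripts follow a rule: the 12 most read; per comparison of shares, up to 8 called members each way with the largest change among those whose groups do not overlap (a mean of 30 reads and of 100 gene reads at least), filled up to 3 by smallest p; the 4 most read of each list; all of Pcbp1 to Pcbp4, Hnrnpk and Runx1; and the 8 most read called in both knockdowns or on both days. Outside it, Alkbh1-207, Brd2-207, Clk4-212, Ehmt2-208, Fzr1-201, Got1-204, Lyar-209, Map2k3-203, Naa16-202, Pigk-202, Rsrc2-206, Slc25a38-205, Srsf1-204, Srsf11-206, Srsf2-202, Srsf5-208, Srsf6-201, Tpm1-218, Tra2b-206, U2af1l4-222 and Ube2w-203 were chosen after their values were seen. The members, lists and rules were chosen with earlier results of these data known.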

Additional observations from a re-analysis of the deposited data

Results flagged for a closer look

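In 3 of 2818 tested members the effect of PCBP1 knockdown on the share of the gene differed between Day 0 and Day 2 by the interaction term in edgeR. Dhrs11-202 (log2 difference -0.95, SE 0.12, adjusted p = 0.0118) was above every control in 3 of 3 PCBP1 libraries at Day 0 and within the control range in 3 of 3 at Day 2. It kept its call whichever library was left out (edgeR adjusted p 0.00425 to 0.0483). Ccdc9-211 (log2 difference -1.90, SE 0.29, adjusted p = 0.037 in edgeR) was above every control in 3 of 3 at Day 0 and overlapped control at Day 2. Leaving out 1 library lost its call in 9 of 12 cases (edgeR adjusted p 0.0239 to 0.0976). Pold1-208 (edgeR adjusted p = 0.037) overlapped control at Day 0 and was below every control in 3 of 3 at Day 2, with 0, 0 and 0.08247 estimated reads there. Its call was lost in 8 of 12 cases (edgeR adjusted p 0.0226 to 0.103). With the hairpin as a replicate block, none of the 3 passed the threshold (edgeR adjusted p 0.286, 0.708 and 0.575 in the order named).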

How the results depend on the processing

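The total share of NMD reads depended on the denominator. As log2 ratios, PCBP1 against control at Day 0 (0.071) was 0.054 over reads of the host genes, 0.122 by TPM and 0.119 by TPM without globin genes; at Day 2 (0.037) it was -0.07 without globin reads, -0.085 over host genes and 0.152 by TPM; PCBP2 at Day 2 (0.112) was 0.038, 0.031 and 0.18. Over both days PCBP1 (0.054) was -0.001 without globin reads, -0.015 over host genes and 0.137 by TPM, and PCBP2 (0.077) was 0.032 over host genes and 0.122 by TPM. Day 2 against Day 0 without globin reads, over host genes, by TPM, with a complete coding start, without the 2 most read members and by TPM without globin genes was 0.74, 0.745, -0.507, 0.152, -0.062 and 0.616 in control (0.211 as reported), 0.6, 0.607, -0.478, 0.124, -0.048 and 0.495 in PCBP1 (0.177), 0.736, 0.743, -0.391, 0.224, 0.053 and 0.615 in PCBP2 (0.28) and 0.692, 0.698, -0.459, 0.167, -0.019 and 0.575 over all (0.223). With support level 1 or 2 alone it was 0.259 in PCBP1, 0.357 in PCBP2 and 0.286 over all. Leaving out any 1 library kept each total within its spread and direction. The settings without the 2 most read members, TPM without globin genes and those of the list genes were chosen after seeing the data. The causes were not tested.

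Counts of members with a changed share, in the fit to the 9 libraries of a day, by DESeq2, diffSpliceDGE and limma, were 3, 65, 26 and 3 for PCBP1 at Day 0 (6 as reported); for PCBP2 at Day 0 (0) DESeq2 gave 15 and diffSpliceDGE 8. PCBP1 at Day 2 (22) gave 3, 106 and 43 in the first 3 of these and 10 without a filter, and PCBP2 at Day 2 (3) gave 0, 71, 38 and 6, with 5 after the GC trend was removed, 10 at a mean of 50 reads and 0 without a filter. DESeq2 kept all 6, 22 and 3 reported calls. The change of the PCBP1 effect (3) gave 43, 21 and 1 by DESeq2, diffSpliceDGE and limma, and that of PCBP2 (0) gave 24, 18 and 3. Leaving out 1 library gave 3 to 7 for PCBP1 and 0 to 1 for PCBP2 at Day 0, 11 to 41 and 1 to 19 at Day 2, 574 to 659, 480 to 535 and 612 to 664 between days in control, PCBP1 and PCBP2 libraries, and 1 to 9 and 0 to 6 for the changes of effect.

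Level counts for PCBP1 at Day 0 (2) were 6 with the 9 libraries, 35 by DESeq2 and 1 after GC removal, with library totals or without a filter, and for PCBP2 at Day 0 (0) 10 by DESeq2. At Day 2 PCBP1 (70) gave 10, 191, 38 after GC removal and 41 without a filter, and PCBP2 (7) gave 0, 99, 2 after GC removal and 14 with library totals. Leaving out 1 library gave 0 to 6, 0 to 1, 33 to 84 and 6 to 27, and 1298 to 1396 between days in control. NMD factor genes were 3 with the 9 libraries for PCBP1 at Day 0 (0), 4 at Day 2 (7; 4 to 7 with 1 library left out), and for PCBP2 at Day 2 (3) 0 with the 9 libraries and 5 by DESeq2 (1 to 4). Exon junction complex genes were 2 with the 9 libraries for PCBP1 at Day 0 (1; 0 to 1), 0 with the 9 libraries or without a filter and 5 with library totals at Day 2 (3; 0 to 3), and for PCBP2 at Day 2 (1; 0 to 2) 0 with the 9 libraries and 2 by DESeq2 or its size factors. Between days leaving out 1 library kept 22 and gave 11 to 12 of them.

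Single calls were followed only for transcripts named for their change or smallest p in the same comparison. Among these none changed direction. Other settings left 430 of 540 call states as reported, lost 104 and added 6, and leaving out 1 library left 388 and lost 122. Transcripts named only as most read or as members of a list were not part of this count. The stability of their single calls between days was not tested. Whether hairpin numbers pair the days was not settled. Correlations of same-hairpin deviations were weak, at -0.01 to 0.05 over 23214 transcripts, which cannot show that the days are unpaired. Of 9 hairpins, 6 correlated best with themselves, a hint from the data only. Of the 48 named calls between days, those with the largest changes, the block kept 14 and lost 34 (13 of 16 in control, 13 of 16 in PCBP1 and 8 of 16 in PCBP2 libraries), and it lost the 3 calls of a changed PCBP1 effect. The replicate block gave 483, 399 and 515 members with a changed share between days and 0 and 0 for the changes of effect. On the day totals the block gave log2 ratios of 0.21, 0.176 and 0.28 in control, PCBP1 and PCBP2 libraries and 0.222 over all, and 1201 members with a changed level in control. The median PSI of private junctions in control (1.7% and 4.65% on the 2 days) was 2.4% and 7.37% with the highest deposited value of each junction and 1.31% and 3.08% over 202 members from junctions with 1 deposited value, both chosen after seeing the data. Members of few reads set the limit of precision: 1490 of 5161 had a mean under 1 read.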
